A study of Ovis aries with 8 samples.

Results

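TAC1 and OXT encode the precursors of neuropeptides, and the ovine array carried 4 probes for them, 2 for TAC1 and 2 for OXT, among 15008 probes. The probes were chosen by the gene that the scanner files name for each, and all 4 were used. RNA came from whole pituitaries of 8 catheterized fetal sheep, each from a different twin pregnancy, and was hybridised to 1-colour arrays with 1 fetus per array. In the hypoxia group (n = 4), nitrogen was passed into the trachea of the conscious ewe for 30 min and the fetus was killed 60 min after the onset. The normoxia group (n = 4) carried the same catheters and went through the same protocol with the nitrogen flow left off. Hypoxic fetuses were 131, 131, 129 and 132 days of gestation in replicates 1 to 4, and normoxic fetuses were 126, 128, 129 and 123 days. Each group held 3 males and 1 female, namely hypoxia replicate 1 and normoxia replicate 3. The lobes were not separated, so fewer cells of a type and less RNA per cell cannot be told apart in any value below. An extraction label names the hypothalamus, whereas every other label and the study's methods name the pituitary.

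TAC1 encodes preprotachykinin, from which substance P and neurokinin A are cut, peptides that act through tachykinin receptors on neurons, endocrine cells and vessels. Oxytocin is made mainly by magnocellular neurons of the hypothalamus, whose axons end in the posterior lobe beside glial cells called pituicytes. Its precursor, encoded by OXT, also carries the neurophysin that packs with it in the granule, and the gene lies next to that of vasopressin in the sheep genome.

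Each probe is 60 bases long, and the last 30 bases of each are given to show how far the probes of a gene overlap. The probes for TAC1 came from the same transcript with 6 bases between them, and those for OXT were shifted by 1 base and shared 59 bases. Capitals mark the hexamer AATAAA, the common polyadenylation signal, which both OXT probes held near their 3′ end. It was searched on the printed strand alone, and 5.63% of the 15008 probes held it.
TAC1 A_70_P030231: tggaagcagtcacatcagctactactacgg
TAC1 A_70_P030232: gttcaatgaagttgtaaaaacctatcaaag
OXT A_70_P039696: gaattatgacaatgaAATAAAgcctttttt
OXT A_70_P039697: ggaattatgacaatgaAATAAAgccttttt
The OXT probes therefore read nearly the same stretch and are not independent measurements. No other probe of the array shared 16 bases in a row with any of the 4. All 4 were well above background on 8 of 8 arrays, and none had a saturated spot.

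Arrays differed before any gene was compared. The median spot signal was 295, 264, 290 and 230 in hypoxia replicates 1 to 4 and 381, 309, 347 and 348 in normoxia replicates 1 to 4. The brightest hypoxia array was below the dimmest normoxia array (p = 0.0286 by an exact two-sided permutation, the lowest value possible with 4 against 4). Hypoxic fetuses were also older, at 130.75 ± 1.26 against 126.5 ± 2.65 days (SD, n = 4 each), with an exact two-sided permutation p of 0.0571. The arrays were quantile normalized to a common distribution, and levels below are log2 of the normalized intensity, which compare arrays for a probe and not probes with each other. A probe was called at an unadjusted limma p of 0.05 or below, the threshold of the study's methods, with Benjamini-Hochberg adjusted values over all 13069 retained probes beside it.

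TAC1 was higher after hypoxia with both probes, and its level varied widely between fetuses of the same group. With the brighter probe, A_70_P030231, the level was 12.55, 9.64, 11.97 and 11.87 in hypoxia replicates 1 to 4 and 10.40, 10.73, 9.10 and 10.25 in normoxia replicates 1 to 4. Hypoxia replicates 1, 3 and 4 lay above all 4 normoxia arrays, whereas hypoxia replicate 2 lay below all of them but replicate 3. Measured against the normoxia mean, the hypoxia arrays stood at 5.39-, 0.717-, 3.62- and 3.36-fold. The difference was 1.39 log2 units (SE 0.59, 95% interval 0.06 to 2.72), a 2.62-fold level with an interval of 1.04 to 6.59. The limma p was 0.0425 (adjusted p = 0.252), and exact permutation of the arrays gave a two-sided p of 0.114.

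The dimmer TAC1 probe, A_70_P030232, gave the same order of the groups. Its level was 12.23, 9.47, 11.59 and 11.72 in the hypoxia arrays and 10.13, 10.58, 8.89 and 10.20 in the normoxia arrays, again with hypoxia replicate 2 alone inside the normoxia range. The difference was 1.30 log2 units (SE 0.57, limma p = 0.0492, adjusted p = 0.271), with an exact permutation p of 0.114. Over the 8 arrays the probes had a Pearson r of 0.997, given as a description of 2 probes read on the same arrays.

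**Figure D1:**
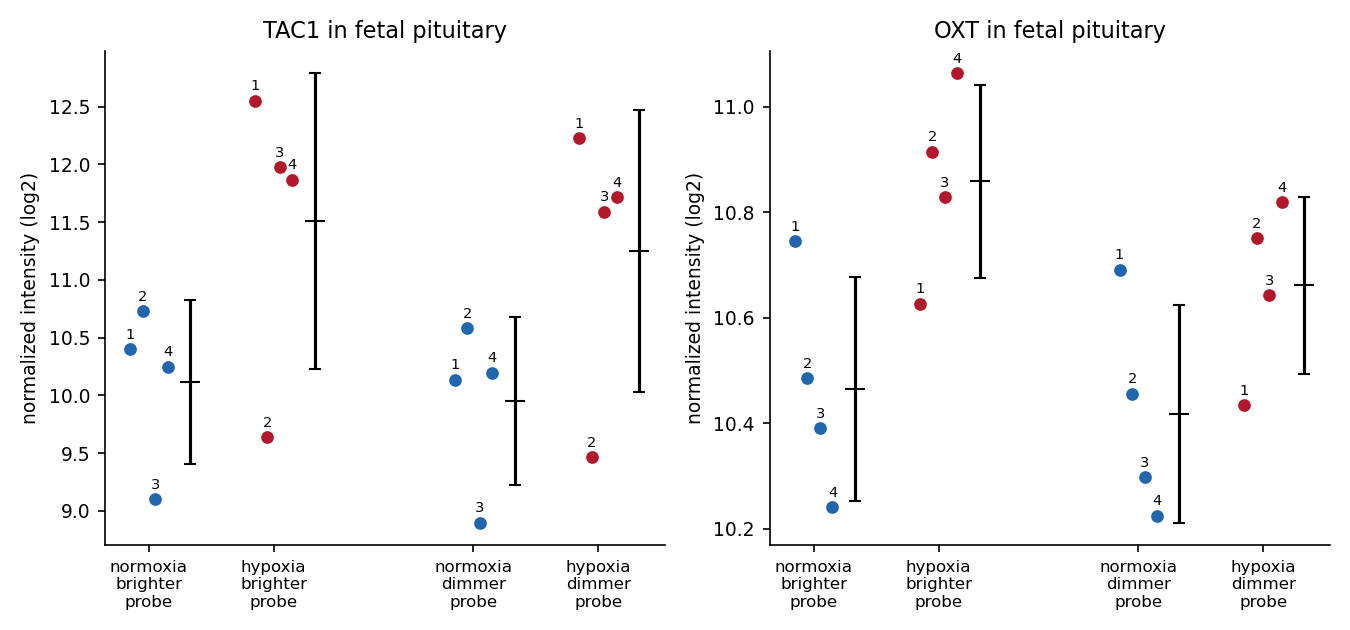
Normalized log2 intensity (y axis) of both TAC1 probes (left) and both OXT probes (right) on each array, with numbers giving the replicate, and bars the mean ± SD of 4 arrays. TAC1 runs from 8.89 to 12.55 with hypoxia replicate 2 among the normoxia arrays, and OXT spans a much narrower range, from 10.22 to 11.06.

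TAC1 was also read on repeated spots. The brighter probe was printed 5 times on each array, and the SD between these spots was 0.04 to 0.20 log2 units on an array. Of its 40 spot readings, 1 was marked an outlier by the scanner software and left out. The dimmer probe was printed once, and repeat spots cover no difference between arrays. The pooled SD between arrays of a group was 1.04 log2 units, the 49th highest of the 13069 retained probes. The difference ranked 4th among the rises of all retained probes and 12th by size in either direction, with 16.9% of retained probes at a p as small or smaller. The brighter and dimmer probes of TAC1 are thus among the largest rises and among the most variable probes on the array.

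**Figure D2:**
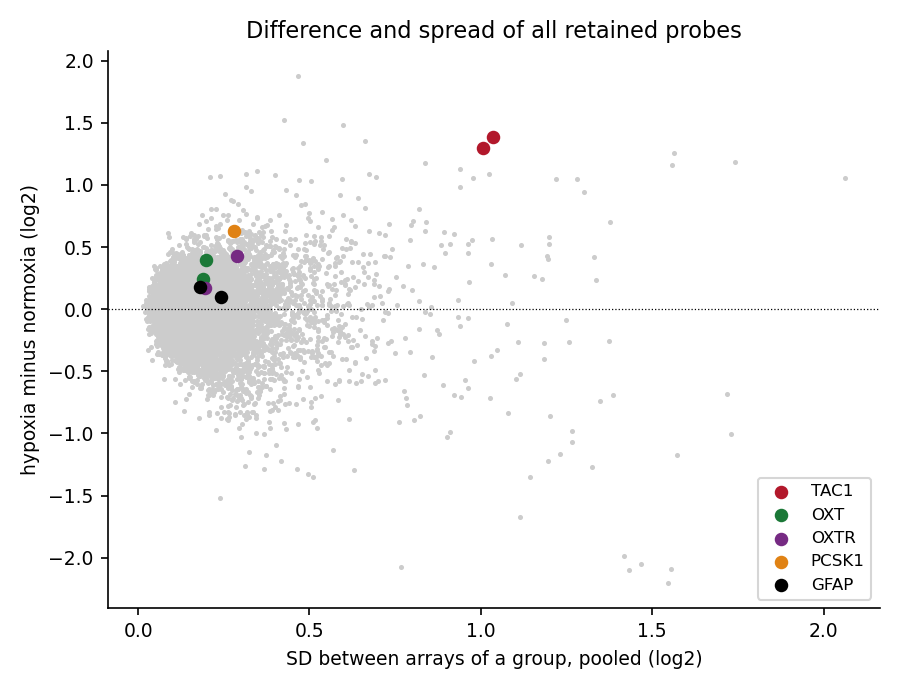
Hypoxia minus normoxia (y axis, log2 units) against the pooled SD between arrays of a group (x axis, log2 units) for the retained probes, 1 grey point a probe, with named genes in colour. Both TAC1 probes lie high and far to the right, at differences of 1.39 and 1.30 and SDs of 1.04 and 1.01, and both OXT probes lie near an SD of 0.20.

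OXT was higher after hypoxia by a smaller margin and with far less spread. With the brighter probe, A_70_P039696, the level was 10.63, 10.91, 10.83 and 11.06 in hypoxia replicates 1 to 4 and 10.74, 10.48, 10.39 and 10.24 in normoxia replicates 1 to 4. Normoxia replicate 1 lay above hypoxia replicate 1, and the other normoxia arrays lay below all 4 hypoxia arrays. The difference was 0.39 log2 units (SE 0.13, 95% interval 0.11 to 0.68), a 1.31-fold level with an interval of 1.08 to 1.60. The limma p was 0.0127 (adjusted p = 0.156), and the two-sided exact permutation p was 0.0571.

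The dimmer OXT probe, A_70_P039697, did not pass the threshold. Its level was 10.43, 10.75, 10.64 and 10.82 in the hypoxia arrays and 10.69, 10.46, 10.30 and 10.22 in the normoxia arrays, so hypoxia replicate 1 lay below normoxia replicates 1 and 2. The difference was 0.24 log2 units (SE 0.12, 95% interval -0.03 to 0.52, limma p = 0.0778, adjusted p = 0.328), with an exact permutation p of 0.143. Thus 3 of the 4 probes were called higher, where 7.45% of all retained probes were called higher, and 0 of 4 had an adjusted p under 0.05, which 0.023% of retained probes had. Neither gene had groups that did not overlap, which 4.25% of the probes measured on every array showed with hypoxia higher.

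Although the OXT probes share 59 of their 60 bases, their hypoxia differences were unequal by 0.15 log2 units. The brighter probe exceeded the dimmer by 0.16 to 0.24 on the hypoxia arrays and by 0.02 to 0.09 on the normoxia arrays, with no overlap (two-sided exact permutation p = 0.0286). Among 198 retained pairs of probes shifted by 1 base, the OXT pair included, the median size of such a gap was 0.04, and 22 pairs, or 11.1%, had one at least as large. In 3 of the 198 pairs, or 1.52%, the groups did not overlap. For TAC1 the corresponding change was 0.09 log2 units (two-sided exact permutation p = 0.229).

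The OXT difference depended on whether the arrays were scaled to each other. For the brighter probe it was 0.39 with 75th percentile scaling, 0.42 with the processed signal and 0.37 with the deposited log2 values. Each of these was called (limma, adjusted p = 0.225, 0.221 and 0.230), whereas the dimmer OXT probe was called with none of them. Before normalization the background-corrected log2 intensity of the brighter OXT probe was 10.54, 10.73, 10.77 and 10.65 on the hypoxia arrays and 11.17, 10.47, 10.56 and 10.46 on the normoxia arrays. Normoxia replicate 1 was then the highest of all 8 arrays, and the groups differed by 0.01 log2 units (limma, adjusted p = 0.967), while the median retained probe differed by -0.33. The OXT level thus stood 0.33 log2 units above the median change on that scale, close to the 0.39 after normalization. The dimmer OXT probe differed by -0.14 before normalization. TAC1 differed by 0.98 log2 units without normalization and was called (limma, adjusted p = 0.106), with hypoxia replicates 1, 3 and 4 again above every normoxia array. The dimmer TAC1 probe differed by 0.90 on that scale and was not called (limma, adjusted p = 0.122).

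**Figure D3:**
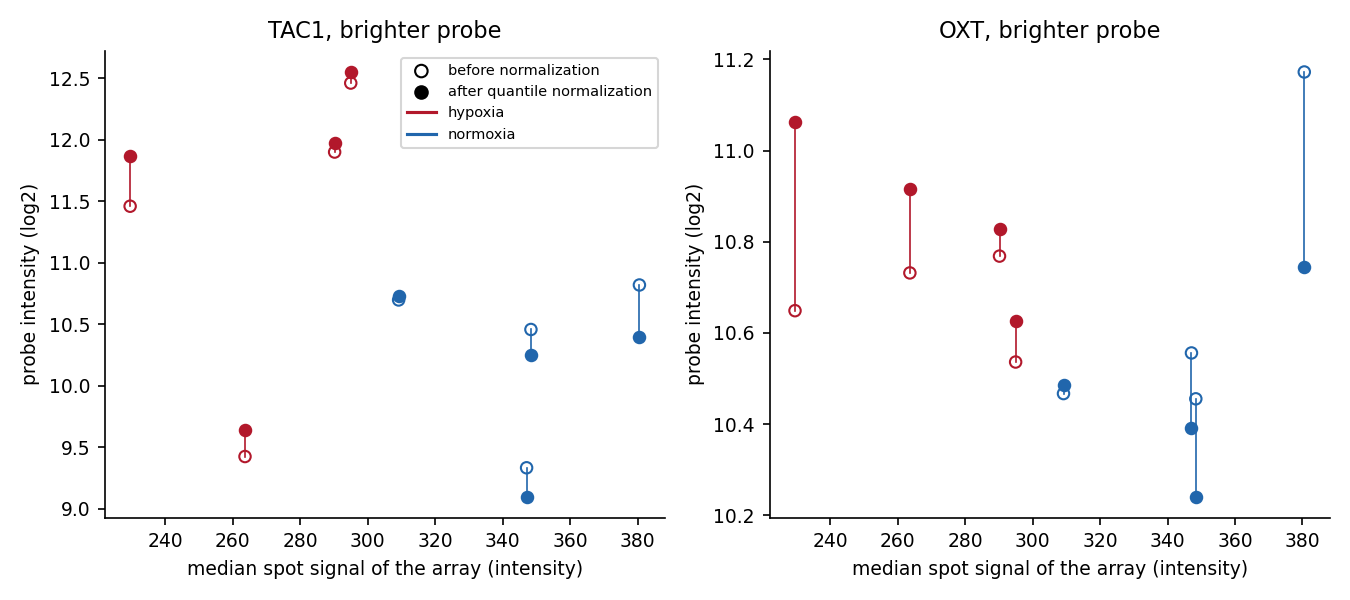
Log2 intensity (y axis) of the brighter TAC1 probe (left) and OXT probe (right) before (open circles) and after (filled circles) quantile normalization, against the median spot signal of the array (x axis, intensity), red for hypoxia and blue for normoxia. For OXT the step was up to 0.43 log2 units, larger than the group difference of 0.39. For TAC1 it was up to 0.42, smaller than the group difference of 1.39. Hypoxia replicates 1, 3 and 4 lie above every normoxia array for TAC1 both before and after the step.

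With the median spot signal of each array as a covariate the OXT difference was 0.25 (limma, adjusted p = 0.976), and with gestational age it was 0.27 (limma, adjusted p = 0.845), and neither fit called it. Over the 8 arrays OXT had a Pearson r of -0.73 with the median spot signal (exact permutation p = 0.0406, adjusted p = 0.165 over 7 relations) and a Spearman rho of -0.76 (exact permutation p = 0.0368). With group means removed r was -0.29 (exact permutation p = 0.5). Hypoxia replicate 4 and normoxia replicate 1 lay farthest from the median brightness. With these left out and group means kept, r was -0.95 over 6 arrays (exact permutation p = 0.00694), a value that still holds the difference between the groups. With gestational age r was 0.71 (exact permutation p = 0.047, adjusted p = 0.165) and rho 0.71 (exact permutation p = 0.0562), and r fell to 0.19 without replicate 4 of each group (exact permutation p = 0.689). Brightness, age and condition moved together, and the part of brightness and age in the OXT difference was not tested beyond these fits. The TAC1 difference was 1.67 with brightness (limma, adjusted p = 0.976) and 1.85 with age (limma, adjusted p = 0.804), larger than without them but no longer called.

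Each slide carried 2 arrays of each group. Slide 1 held hypoxia replicates 1 and 3 with normoxia replicates 1 and 2, and the other arrays were on slide 2. The TAC1 difference was 1.70 log2 units on slide 1, where the groups did not overlap, and 1.08 on slide 2, where they did. The OXT difference was 0.11 on slide 1 with overlapping groups and 0.67 on slide 2 with no overlap. The dimmer OXT probe differed by -0.04 on slide 1 and by 0.52 on slide 2. With 2 arrays of each group on a slide a lack of overlap is only a description, and its share over all probes was not counted. The change of the OXT difference between slides was 0.56 log2 units with either probe (interaction in limma, past the unadjusted threshold, adjusted p = 0.637 for the brighter and 0.591 for the dimmer). For TAC1 the change was -0.62 (limma, adjusted p = 0.895).

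The 2 female fetuses held the extremes of TAC1. The brighter probe was highest on hypoxia replicate 1 and lowest on normoxia replicate 3, a difference of 3.45 log2 units between 1 female and 1 female. Among males the means were 11.16 after hypoxia and 10.46 in normoxia (n = 3 each), a difference of 0.70 that was not called in the fit without the female arrays (limma, adjusted p = 0.545). The interaction of hypoxia with sex was 2.75 with the brighter probe, not past the unadjusted threshold (limma, adjusted p = 0.762), and 2.71 with the dimmer probe, past it (limma, adjusted p = 0.752). This term rests on 1 female a group, so sex and the single fetus cannot be told apart. OXT differed by 0.24 between the females and by 0.45 among the males.

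Calls were fitted again with each array left out in turn. Without hypoxia replicate 2 the TAC1 difference rose to 2.01 log2 units (limma, adjusted p = 0.169). It was also called without normoxia replicate 2 (1.59, limma, adjusted p = 0.296) and lost its call when any of the other 6 arrays was left out, with 1.04 without hypoxia replicate 1 as the lowest value. With OXT the differences ranged from 0.32 to 0.49 and the brighter probe was called in 8 of 8 such fits. The dimmer OXT probe, not called with all arrays, was called without hypoxia replicate 1 (0.32) and without normoxia replicate 1 (0.34).

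**Figure D4:**
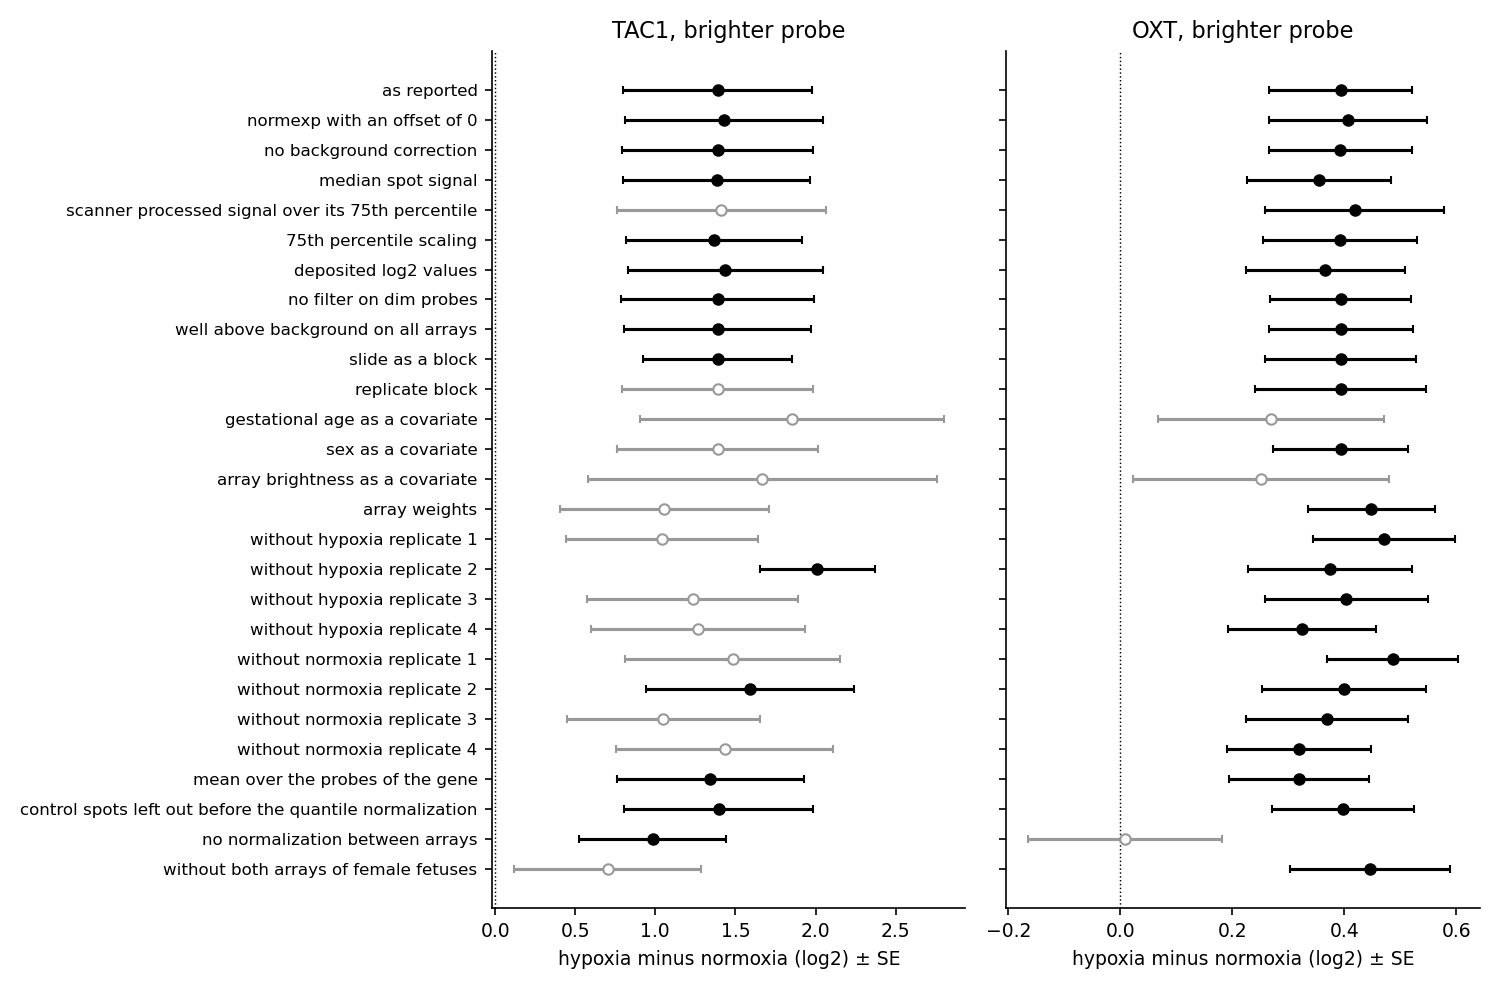
Hypoxia minus normoxia (x axis, log2 units, ± SE) of the brighter TAC1 probe (left) and OXT probe (right) under each setting of processing, covariates and arrays, with filled black points called at an unadjusted limma p of 0.05 or below. TAC1 stays above 0 at 0.70 to 2.01, and OXT stays above 0 but falls to 0.01 without normalization between arrays.

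No relation between TAC1 and OXT across arrays passed a test. Over the 8 arrays Pearson's r was 0.40 (exact permutation p = 0.320, adjusted p = 0.448 over 7 relations) and Spearman's rho 0.33 (exact permutation p = 0.428). With the group means removed r was -0.12 (exact permutation within groups, p = 0.793). Hypoxia replicate 2, the hypoxia array with the lowest TAC1, had the second highest OXT, and hypoxia replicate 1, with the highest TAC1, had the lowest OXT of its group. Without the arrays at the ends of the TAC1 range r was 0.38 (exact permutation p = 0.457). With 8 arrays these values do not show that a relation is absent.

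Processing enzymes and receptors were followed in lists of pathway genes. Of 14 genes of the tachykinin pathway 5 were measured, 2 of them were called higher (TAC1 and PCSK1) and 0 lower, with a median difference of -0.07 log2 units against -0.005 over all retained probes. Over all retained probes 7.45% were called higher and 11% lower, and the count includes TAC1 itself. PCSK1 encodes prohormone convertase 1, which cuts neuropeptide precursors in secretory granules. Its level was 8.59, 9.36, 9.36 and 9.30 after hypoxia and 8.38, 8.54, 8.64 and 8.53 in normoxia, so hypoxia replicate 1 lay among the normoxia arrays and the other 3 lay above them. PCSK1 was higher by 0.63 log2 units (SE 0.17, limma, adjusted p = 0.113, exact permutation p = 0.0571), and it was not called with brightness (0.31), with age (0.61) or without normalization (0.24). CPE, the carboxypeptidase that trims such peptides, differed by -0.09 (limma, adjusted p = 0.667), and ECE1, a membrane peptidase that degrades substance P, by -0.07 (limma, adjusted p = 0.733). TAC3, the precursor of neurokinin B, differed by -0.34 (SE 0.46, limma, adjusted p = 0.733) and ranged from 7.24 to 9.35 after hypoxia, with hypoxia replicate 3 highest and replicate 2 lowest. Tachykinin receptors were not analysed here.

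Of 18 genes of the oxytocin and vasopressin pathway 6 were measured, and 3 were called higher (OXT, OXTR and PCSK1) and 0 lower, with a median of 0.23 log2 units. That count is read against the same 7.45%, includes OXT itself and shares PCSK1 with the tachykinin list. OXTR, the oxytocin receptor, had levels of 6.79, 7.34, 6.48 and 7.05 after hypoxia and 6.27, 6.63, 6.42 and 6.64 in normoxia with its brighter probe. Hypoxia replicate 3 lay within the normoxia range and the other hypoxia arrays above it, with a difference of 0.43 (SE 0.17, limma, adjusted p = 0.239, exact permutation p = 0.0857). The OXTR call was lost without hypoxia replicate 2 (0.29) or 4 (0.38) or normoxia replicate 1 (0.35) or 3 (0.40), with age (0.32), without normalization (0.16) and without the female arrays (0.44), and with brightness the difference was -0.03. It was larger and still called with a normexp offset of 0 (0.82), the deposited log2 values (0.79) and the processed signal (1.08). The brighter OXTR probe was well above background on 8 of 8 arrays but dim, as an ACE probe that was not retained read up to 6.34 in normoxia. The second OXTR probe, well above background on 5 of 8 arrays, differed by 0.17 and was not called. AVPR1B, the vasopressin receptor of corticotrophs, differed by 0.08 (limma, adjusted p = 0.668), and vasopressin itself was not analysed here. Of 23 genes of dense core granules and peptide processing 3 were measured, of which PCSK1 alone was called.

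Markers of other cells were read beside the members. Of 24 genes of the posterior lobe and glia 5 were measured, and with the brightest probe of each all 5 were higher with 0 called. Their median was 0.07 log2 units, against -0.005 over all retained probes. GFAP, the intermediate filament of astrocytes and of some pituicytes, had levels of 8.21, 8.66, 8.55 and 8.72 after hypoxia and 8.24, 8.28, 8.50 and 8.41 in normoxia, with hypoxia replicate 1 the lowest of all. The GFAP difference was 0.18 (SE 0.12, limma, adjusted p = 0.476), and without hypoxia replicate 1 it was 0.29 and called (limma, adjusted p = 0.124). VIM differed by 0.14 (SE 0.19), FGF10 by 0.07 (SE 0.19), AQP4 by 0.03 (SE 0.35) and GJA1 by 0.03 (SE 0.26). None of them was called. A dimmer probe of FGF10 (-0.10) and a dimmer probe of GJA1 (-0.04) were lower, and the other dimmer probes of the list were higher. The summed linear intensity of the list was 34856 to 70935 after hypoxia and 40532 to 48488 in normoxia. VIM made up most of this sum, at a mean log2 level of 15.46 after hypoxia against 11.35 for GJA1, the next brightest. The range therefore describes mainly VIM. Pearson's r over the 8 arrays was 0.54 between OXT and GFAP (exact permutation p = 0.167) and -0.14 between TAC1 and GFAP (exact permutation p = 0.742). The part of the posterior lobe in either gene's difference was not tested.

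Of 20 genes of neurons and axons 1 was among the named probes and 0 were retained. Only 1386 of the 15008 probes were named, so others may lie on the array without a name. The counts that follow are read against the 7.45% of retained probes called higher and the 11% called lower. Of 22 hypothalamic neuropeptides 11 were measured, with 0 called higher and 1 called lower, at a median of -0.18. The latter was PMCH, the precursor of melanin-concentrating hormone, at -0.35 log2 units with groups that did not overlap (limma, adjusted p = 0.135, exact permutation p = 0.0286). The share of all probes without overlap and with hypoxia lower was not counted. PMCH was not called with age (-0.27) or 75th percentile scaling (-0.31), and ranged to -0.69 without normalization. Of 22 genes of the anterior lobe 13 were measured, with FSHB, a subunit of follicle-stimulating hormone, called higher and 0 lower at a median of 0.02. The FSHB difference of 0.46 was 0.03 with age and lost its call without any 1 of 6 arrays. Anterior lobe markers had a summed intensity of 1265707 to 1340988 after hypoxia and 1200876 to 1334653 in normoxia. PRL, POMC and CGA made up most of it, at mean log2 levels of 18.94, 18.85 and 17.74 after hypoxia. Growth hormone was listed as GH1 but named GH on the array, so the counts and the sum leave it out. A retained GH probe had mean levels of 18.95 after hypoxia and 18.93 in normoxia, a difference of 0.02 (limma, adjusted p = 0.907). Of 10 red cell genes 2 were measured and 0 called, with summed intensities of 12896 to 32552 after hypoxia and 4382 to 24035 in normoxia. Nearly all of that sum was HBB, at a mean log2 level of 14.29 after hypoxia against 7.98 for AHSP. Both red cell genes had higher means after hypoxia, HBB by 0.62 (SE 0.51) and AHSP by 0.69 (SE 0.42), a median of 0.66 log2 units, and their part in the TAC1 and OXT differences was not tested. Of 16 skeletal muscle genes 4 were measured, and 1 of them, CAPN3, a muscle protease, was called lower, at -1.32, and was not called with age (-0.82) or brightness (-0.45). The summed muscle intensity was 839 to 947 after hypoxia and 1027 to 1452 in normoxia, which did not overlap, while the other 3 genes differed by 0.09 (TNNC2), 0.03 (MB) and -0.04 (MSTN) and the list had a median of -0.005. MSTN was read with its only named probe. The study reported MSTN as lower after hypoxia on its arrays and by qPCR, a fall that this probe did not show. CAPN3 is the only member that was called here, and the list's part in the TAC1 and OXT differences was not tested.

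Other genes whose level followed the members were ranked by Pearson's r with the brighter probe over the 8 arrays, among 1193 named probes. The closest to TAC1 were SSTR5 (r = 0.85), a somatostatin receptor, GJB2 (r = 0.84 and 0.82 with its probes), a gap junction protein, MCL1 (r = 0.84), a survival factor, and CYB561 (r = 0.82), a cytochrome of secretory granules. None of these but MCL1 was called, and MCL1 differed by 0.24 log2 units (limma, adjusted p = 0.202). The closest to OXT were HAND1 (r = 0.99), GAPDH (r = 0.97), MYF5 (r = 0.96), PRLH (r = 0.96) and HRH2 (r = 0.95). HAND1 and MYF5 encode transcription factors of heart and skeletal muscle, and GAPDH encodes a glycolytic enzyme. HAND1, GAPDH, MYF5 and PRLH were called higher, at 0.37, 0.30, 0.55 and 0.59 log2 units. These r values describe the most extreme of 1193 probes on 8 arrays that share slide and brightness, and they carry no test.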

How the data were processed

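RNA of 4 hypoxic and 4 normoxic fetal pituitaries was measured on 8 Agilent 1-colour arrays, and p-values measure the spread between fetuses. The authors deposited spot intensity from Agilent Feature Extraction 10.1.1.1, not normalized, with flags for spots well above background, saturated or outlying. The authors also deposited log2 values, background-corrected, quantile normalized and filtered in limma, used here as an alternative. No genome build was needed, and the RefSeq table served for names and neighbours.

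In R 4.3.3 with limma 3.58.1, the mean spot signal was corrected by normexp (offset 50) and quantile normalized over all spots. Control spots and spots flagged as outliers were then left out, and spots of a probe were averaged. Retained probes reached, on 3 arrays or more, 1.1 times the level under which 95% of negative controls lay. Condition was fitted with lmFit and eBayes on all retained probes, and single probes were also compared by exact permutation. The brighter probe gave a gene's value. The steps were tested on simulated data. Of the 15008 probes 1386 were named, for 861 genes, and a list gene counts as measured where a probe named with its listed symbol was retained.

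The members and the gene lists were chosen with earlier results of these data known. Genes named are the members, GFAP, called members of each list (at most 5), measured receptors and enzymes of both pathways, and the 5 named probes closest to each member. VIM, FGF10, AQP4, GJA1 and TAC3 were named after their values were seen. HBB, AHSP, TNNC2, MB, MSTN, PRL, POMC, CGA and GH are named as well, outside the rule above. Alternatives changed the background correction, spot signal, normalization, filter, covariates, weights, probe rule and arrays. Between 79.5% and 85.5% of probes were well above background, and the number of arrays limits the precision.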

Additional observations from a re-analysis of the deposited data

Results flagged for a closer look

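The change of the OXT difference between slides was 0.56 log2 units with the brighter probe and 0.56 with the dimmer, each past the threshold of an interaction test in limma before adjustment over all probes. The TAC1 difference of the dimmer probe changed by 2.71 log2 units between the sexes in the same kind of test, with 1 female in each group.

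Within the hypoxia group PCSK1 stood apart on replicate 1, at 8.59 against 9.30 to 9.36 on the others, and the gap was 0.919 of the group's range. Within the normoxia group FSHB stood apart on replicate 3, at 15.17 against 14.22 to 14.36, with a gap of 0.847 of the range. Of 58 groups of 4 arrays examined 2 stood apart in this way, where chance gives about 1 in 20.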

How the results depend on the processing

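Values here are log2 differences unless counts are named. The TAC1 difference of the brighter probe kept its direction under 18 alternatives and lost its call under 7 of them: the scanner's processed signal over its 75th percentile (1.41), the replicate block (1.39), gestational age (1.85), sex (1.39), array brightness (1.67), array weights (1.06) and the fit without both female arrays (0.70). Leaving out 1 array gave 1.04 to 2.01. The dimmer TAC1 probe kept its direction under 17 alternatives and lost its call under 11, among them a normexp offset of 0 (1.34), no background correction (1.30), no filter (1.30) and no normalization (0.90). The OXT difference of the brighter probe kept its direction under 18 alternatives and lost its call with age (0.27), with brightness (0.25) and without normalization between arrays (0.0086). Leaving out 1 array gave 0.32 to 0.49. The correlation of TAC1 with OXT was 0.38 to 0.43 under 6 alternatives and 0.23 to 0.63 without 1 array, and was never past the threshold. Adjusted p-values over all alternatives were at least 0.106 for TAC1 and 0.068 for OXT.

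Probes called higher numbered 974, with 377 under age, 264 under brightness, 34 without normalization and 649 (without hypoxia replicate 4) to 1194 without 1 array. Probes called lower numbered 1432, with 445, 292, 5836 and 971 to 1662. Scaling to the 75th percentile gave 979 higher and 976 lower.

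Directions turned for the dimmer OXT probe without normalization (-0.14) and for OXTR with brightness (-0.028). They turned as well for uncalled differences: GFAP with brightness (-0.074) and without normalization (-0.20), TAC3 with age (0.23) and brightness (1.08), CPE with the processed signal (0.0041), 75th percentile scaling (0.031), age (0.073) and brightness (0.054), AVPR1B without normalization (-0.18), and ECE1 without the female arrays (0.041). The causes were not tested.

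Deviations of arrays that share a replicate number had correlations of -0.05, 0.02, 0.12 and -0.10, within the -0.11 to 0.13 of arrays with different numbers. These values show no pairing by number, though so few of them cannot exclude one. With the replicate as a block TAC1 was not called (limma, adjusted p = 0.320) and OXT was called (limma, adjusted p = 0.286), and 830 probes were called higher and 1293 lower. The fits without normalization between arrays, with control spots left out before it and without both female arrays were chosen after seeing the data. The planned vasopressin comparison was not run.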
